A study of Mus musculus with 16 samples.

Results

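The 10 genes described here were followed through every array of a mouse melanoma experiment: Adipoq, Fabp4, Lpl, Retn, Plin1, Cfd, Lep, Cidec and Pparg, which are known for their activity in fat cells, and Rbp4, which carries retinol in blood. They were found by gene name among the non-control probes of the scanner files, where the 10 genes had 14 probes out of 41135 probes and 30010 distinct names. The genes were picked with group differences on these same arrays already known, so their values, and whether they passed the threshold of the fit over all genes, are given as a description that supports nothing further.

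The tumours were B16-BL6 melanomas, a transplantable pigmented tumour line of the C57BL/6 mouse, taken from male C57BL/6J mice at the age of 8 weeks. There were 4 groups with 4 tumour preparations each. ALA+Xray tumours received 50 mg per kg of 5-aminolevulinic acid (ALA) locally before each fractionated irradiation, Xray tumours received the irradiation alone, ALA tumours received the 50 mg per kg alone, and control tumours received neither. ALA is the first precursor of heme, and the experiment asks what it adds to X-ray. Each preparation was hybridised to a 1-colour Agilent mouse array, and the tumours were not sorted, so fewer cells of a type and less RNA per cell cannot be told apart.

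White fat cells store triglyceride in a single large droplet and release fatty acids when energy is needed. The nuclear receptor encoded by Pparg switches on much of the fat cell programme, Lpl frees fatty acids from circulating lipoproteins, Fabp4 carries them inside the cell, and Plin1 and Cidec act at the droplet surface. Adipoq, Retn, Cfd and Lep encode secreted proteins: adiponectin, resistin, adipsin (complement factor D) and leptin. Rbp4 is made mainly in the liver and also in fat, and delivers retinol to tissues. Several of these genes are not restricted to fat cells, since macrophages are known to express Lpl, Fabp4 and Pparg and capillary endothelium expresses Fabp4.

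Values are log2 signals relative to the 75th percentile of the spots on the same array, so 0 is the level of that percentile and a step of 1 is a doubling. They compare arrays for 1 probe and do not rank genes against each other. A spot counts as detected when the scanner software marked it as well above background. The 75th percentile of the signal was 366.4 to 521.3 units on ALA+Xray arrays, 224.1 to 478.1 on Xray arrays, 216.8 to 331.3 on ALA arrays and 212.9 to 407.8 on control arrays, and 44.3% to 53.6% of spots were well above background, with 0 saturated. The number of arrays limits the precision. The label of a melanoma held, since all 8 melanocyte markers passed the brightness filter and their summed signal was 864 to 1221 times the 75th percentile on ALA+Xray, 1065 to 1195 on Xray, 997 to 1082 on ALA and 939 to 1117 on control arrays.

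The probes differ in how much of a gene they see, which matters below where 2 probes of a gene are set side by side. The Adipoq, Fabp4, Lpl and Retn probes shown here are 60 bases long, read 5′ to 3′, with positions of the array annotation (mm9). The Adipoq probe lies at chr16:23157576-23157635 on the plus strand. Fabp4 probes 2 and 3 lie on the minus strand, probe 2 over a span of 730 bases at chr3:10204533-10205262, so across a splice junction, and probe 3 at chr3:10208442-10208501. The second Lpl probe lies at chr8:71425050-71425109 on the plus strand. The Retn probes lie at chr8:3656107-3656928 and chr8:3656145-3656966 on the plus strand, each over a span of 822 bases, and share 22 bases, shown in capitals, so they are not independent measurements.
Adipoq probe: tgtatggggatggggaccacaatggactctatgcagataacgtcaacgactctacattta
Fabp4 probe 2: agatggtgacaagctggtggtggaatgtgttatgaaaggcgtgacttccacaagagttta
Fabp4 probe 3: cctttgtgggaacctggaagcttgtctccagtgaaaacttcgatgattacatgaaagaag
Lpl probe 2: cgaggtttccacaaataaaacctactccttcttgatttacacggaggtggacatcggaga
Retn probe 1: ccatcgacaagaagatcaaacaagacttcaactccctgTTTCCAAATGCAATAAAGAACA
Retn probe 2: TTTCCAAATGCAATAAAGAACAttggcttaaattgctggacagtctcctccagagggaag

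Adipoq and Rbp4 had the 2 array patterns that the results turn on, so the 250 bases before a start site of each gene are shown (RefSeq, GRCm38.p6). The Adipoq stretch is chr16:23146286-23146535 on the plus strand, and capitals mark CCAAT on either strand, found 7 to 3, 27 to 23 and 34 to 30 bases before the start. The Rbp4 stretch is chr19:38124812-38125061 on the minus strand, and capitals mark TATAAA, 28 to 23 bases before the start. It was chosen because it holds TATAAA. Rbp4 has another start site, with the stretch chr19:38125322-38125571, which holds CCAAT 162 to 158 bases before the start and no TATAAA.
Adipoq promoter: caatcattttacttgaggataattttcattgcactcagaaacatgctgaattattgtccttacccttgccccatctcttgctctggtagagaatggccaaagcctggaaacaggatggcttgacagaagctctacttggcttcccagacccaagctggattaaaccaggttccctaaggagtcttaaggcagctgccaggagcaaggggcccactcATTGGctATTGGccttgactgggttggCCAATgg
Rbp4 promoter: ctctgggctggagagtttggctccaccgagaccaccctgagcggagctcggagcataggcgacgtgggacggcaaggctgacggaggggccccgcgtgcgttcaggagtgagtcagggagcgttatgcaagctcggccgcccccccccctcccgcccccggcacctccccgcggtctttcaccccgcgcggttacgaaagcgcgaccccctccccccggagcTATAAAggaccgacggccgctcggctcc

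RefSeq promoters were matched for 8 of the 10 genes, with 12 start sites among them. CCAAT was in 4 of these 12 promoters and in 33.85% of all 32851 mouse promoters of the same length, and TATAAA was in 2 of 12 and in 12.37%, each counted on both strands. The single site AGGTCA, the letters to which nuclear receptors such as the Pparg product are known to bind, was in 2 of 12 and in 14.02%. Its direct repeat with 1 base between, AGGTCANAGGTCA, was in 0 of 12 and in 0.03%; its letters contain AGGTCA. These are letter matches, not binding sites.

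The genes largely followed 2 array patterns. The secreted proteins and droplet proteins of fat cells, Adipoq, Cidec, Plin1 and Cfd, were highest on the same 3 of 16 arrays, ALA+Xray replicates 2 and 4 and ALA replicate 2. Lpl and Rbp4 were higher on all 4 ALA+Xray arrays than on any Xray or ALA array. Pparg and Fabp4 shared parts of both patterns, and Lep was not detected on any array.

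**Figure D1:**
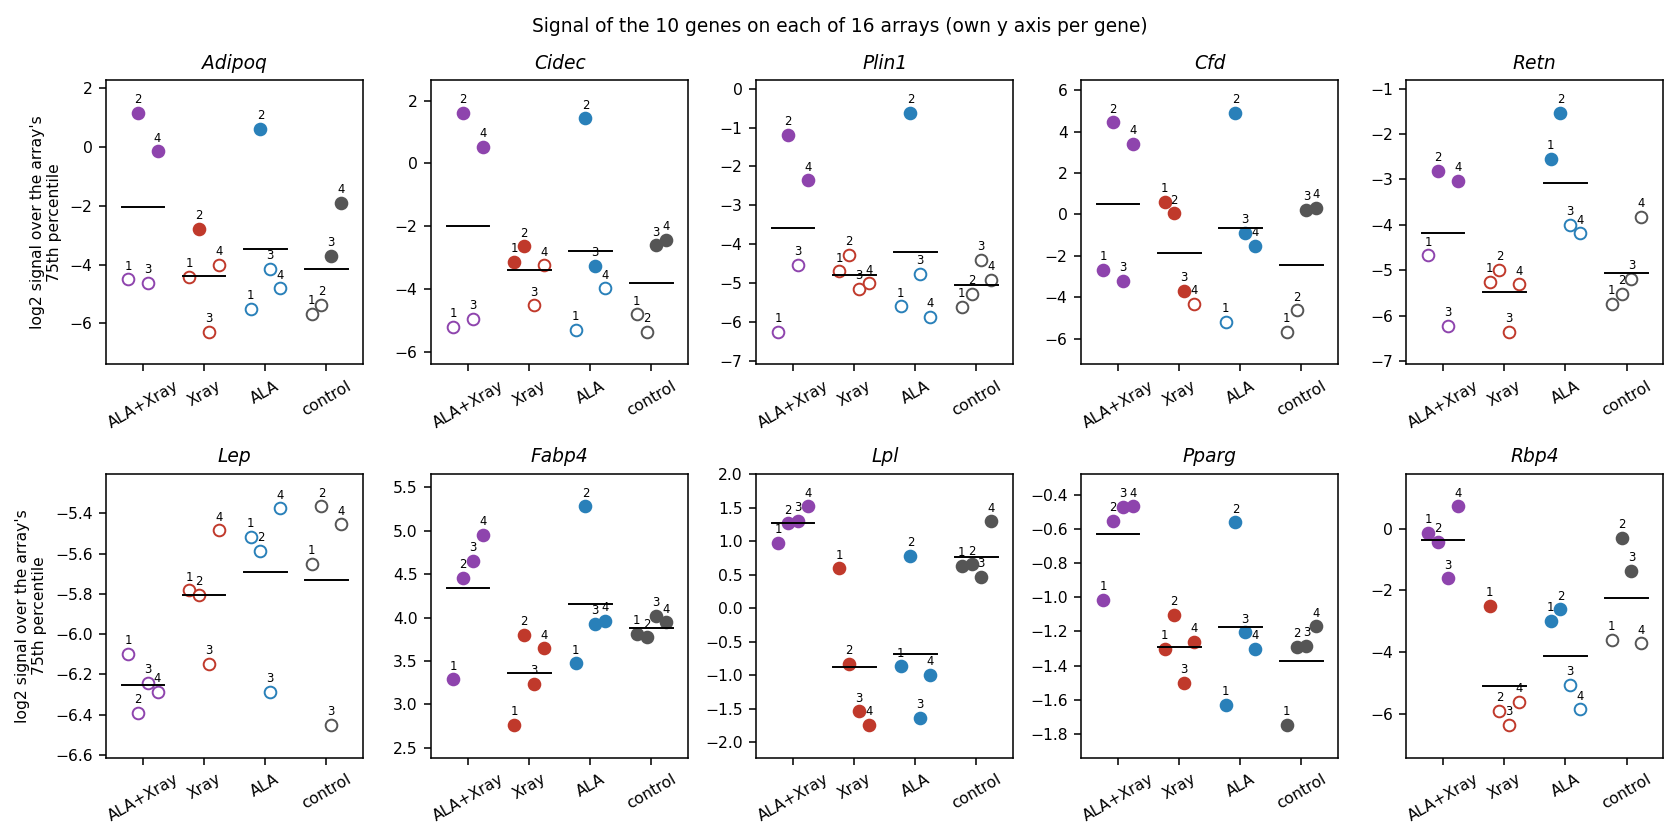
Log2 signal relative to the 75th percentile of the array (y axis, own scale per gene) in the ALA+Xray, Xray, ALA and control groups, 1 point per array, numbered by replicate. Filled points were well above background, hollow points were not, and bars are group means of 4 arrays. Adipoq, Cidec, Plin1 and Cfd peak on ALA+Xray replicates 2 and 4 and ALA replicate 2, while Lpl and Rbp4 stand high on all 4 ALA+Xray arrays.

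Adipoq encodes adiponectin, a hormone made almost only by fat cells. Its signal was -4.50, 1.16, -4.63 and -0.15 on ALA+Xray replicates 1 to 4, -4.43, -2.78, -6.29 and -4.02 on Xray, -5.52, 0.62, -4.15 and -4.81 on ALA, and -5.69, -5.36, -3.70 and -1.90 on control arrays. It was well above background on 6 arrays: 2 ALA+Xray, 1 Xray, 1 ALA and 2 control. The ALA+Xray values fell into a high and a low pair, and every pair of groups overlapped. The group means were -2.03 ± 2.98 in ALA+Xray, -4.38 ± 1.45 in Xray, -3.46 ± 2.78 in ALA and -4.16 ± 1.74 in control tumours (SD, n = 4 each), and the difference between ALA+Xray and control tumours was 2.13 (SE 1.51).

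Cidec, whose product fuses lipid droplets, stood at -5.19, 1.60, -4.93 and 0.52 on ALA+Xray, -3.12, -2.64, -4.51 and -3.24 on Xray, -5.29, 1.43, -3.25 and -3.98 on ALA, and -4.80, -5.35, -2.61 and -2.42 on control arrays. It was well above background on 8 arrays, 2 of each group. Its highest values were again on ALA+Xray replicates 2 and 4 and ALA replicate 2, and its 2 lowest ALA+Xray values lay below every Xray value.

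Plin1 encodes perilipin, which coats the droplet and controls access of lipases to it. Its signal was -6.25, -1.19, -4.54 and -2.36 on ALA+Xray, -4.70, -4.28, -5.14 and -5.01 on Xray, -5.60, -0.63, -4.77 and -5.86 on ALA, and -5.61, -5.27, -4.41 and -4.92 on control arrays. It was well above background on 3 arrays, ALA+Xray replicates 2 and 4 and ALA replicate 2, and so was not tested. The ALA+Xray mean was set against the lowest signal called well above background on the dim arrays. It stood 1.13-fold above that level on control arrays and 1.08-fold above it on Xray arrays. Only 2 of 4 ALA+Xray arrays were above background. The mean includes the others as measured, so these folds are not lower bounds.

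Cfd, the serine protease adipsin, had the widest spread of the 10 genes. It measured -2.67, 4.45, -3.19 and 3.41 on ALA+Xray, 0.62, 0.05, -3.69 and -4.33 on Xray, -5.18, 4.90, -0.90 and -1.53 on ALA, and -5.66, -4.63, 0.23 and 0.33 on control arrays. Within the ALA group alone the arrays spanned 10.1 log2 units, and within ALA+Xray 7.64. The groups overlapped throughout, and the difference between ALA+Xray and control tumours was 2.94 (SE 2.28).

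Retn encodes resistin, a fat cell hormone in the mouse. Its brighter probe read -4.68, -2.81, -6.22 and -3.03 on ALA+Xray, -5.26, -4.99, -6.36 and -5.31 on Xray, -2.55, -1.54, -4.00 and -4.19 on ALA, and -5.74, -5.52, -5.19 and -3.82 on control arrays. That probe was well above background on ALA+Xray replicates 2 and 4 and ALA replicates 1 and 2, and the probe that shares 22 bases with it on the same arrays but ALA replicate 1. The ALA mean of the brighter probe was 1.62-fold above the lowest signal called well above background on control arrays. That mean includes ALA arrays not above background, so this is not a lower bound. The ALA+Xray mean did not exceed that level, nor did either mean of the other Retn probe. The probes gave differences of 2.00 and 0.81 between ALA and control tumours. Lep, the leptin gene, was not well above background on any of 16 arrays, with values of -6.39 to -6.10 on ALA+Xray, -6.15 to -5.48 on Xray, -6.29 to -5.38 on ALA and -6.45 to -5.37 on control arrays, each averaged from 10 spots. Plin1 and Lep therefore fell below the filter that asks for 4 detected arrays, which 8 of the 10 genes passed.

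Fabp4 was bright on all 16 arrays. Its brightest probe measured 3.29, 4.46, 4.66 and 4.96 on ALA+Xray, 2.76, 3.80, 3.24 and 3.65 on Xray, 3.47, 5.28, 3.93 and 3.96 on ALA, and 3.81, 3.77, 4.02 and 3.95 on control arrays. The highest array was ALA replicate 2, one of the 3 arrays with high Adipoq, and control arrays lay within 0.25 of each other. The 3 Fabp4 probes gave differences between ALA+Xray and Xray tumours of 0.98, 0.99 and 0.96, and between ALA+Xray and control tumours of 0.45, 0.56 and 0.24, and the groups overlapped.

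Lpl encodes lipoprotein lipase. Its brightest probe measured 0.98, 1.27, 1.31 and 1.52 on ALA+Xray, 0.60, -0.83, -1.54 and -1.75 on Xray, -0.87, 0.78, -1.64 and -1.0 on ALA, and 0.64, 0.66, 0.47 and 1.30 on control arrays. All 4 ALA+Xray arrays lay above all Xray and all ALA arrays, and overlapped with control, whose replicate 4 reached 1.30. ALA+Xray tumours stood 2.15 above Xray tumours (SE 0.50, 4.44-fold), 1.95 above ALA tumours (SE 0.50) and 0.51 above control tumours (SE 0.50). The second probe, shown above, gave 2.43, 2.02 and 1.01 for the same 3 differences. Xray tumours were at a difference of -1.64 and ALA tumours of -1.44 from control (SE 0.50 each), neither of which passed.

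Pparg was detected on all 16 arrays, each value averaged from 10 spots of its probe, and varied least of the detected genes. It measured -1.02, -0.55, -0.47 and -0.47 on ALA+Xray, -1.30, -1.10, -1.50 and -1.26 on Xray, -1.63, -0.56, -1.21 and -1.30 on ALA, and -1.75, -1.29, -1.28 and -1.17 on control arrays. All ALA+Xray arrays lay above all control and all Xray arrays, and ALA replicate 2 reached into the ALA+Xray range. ALA+Xray tumours stood 0.75 above control tumours (SE 0.21, 1.68-fold), 0.67 above Xray tumours (SE 0.21) and 0.55 above ALA tumours (SE 0.21).

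Rbp4 measured -0.13, -0.43, -1.61 and 0.72 on ALA+Xray, -2.51, -5.90, -6.37 and -5.61 on Xray, -2.99, -2.61, -5.06 and -5.86 on ALA, and -3.60, -0.30, -1.36 and -3.72 on control arrays. It was well above background on 9 arrays: all 4 ALA+Xray arrays, Xray replicate 1, ALA replicates 1 and 2 and control replicates 2 and 3. All 4 ALA+Xray arrays lay above all Xray and all ALA arrays, and control replicates 2 and 3 lay within the ALA+Xray range. ALA+Xray tumours stood 4.73 above Xray tumours (SE 0.99, 26.6-fold), 3.77 above ALA tumours (SE 0.99, 13.6-fold) and 1.88 above control tumours (SE 0.99). These Xray and ALA means include arrays where Rbp4 was not well above background, so the fold changes depend on how signal near background was treated: with a normexp background in place of the processed signal, the difference was 2.04 from Xray and 1.63 from ALA. Of the 3 arrays with high Adipoq, ALA+Xray replicate 4 held the highest Rbp4 value of all arrays, at 0.72, while ALA replicate 2 stood at -2.61.

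**Figure D2:**
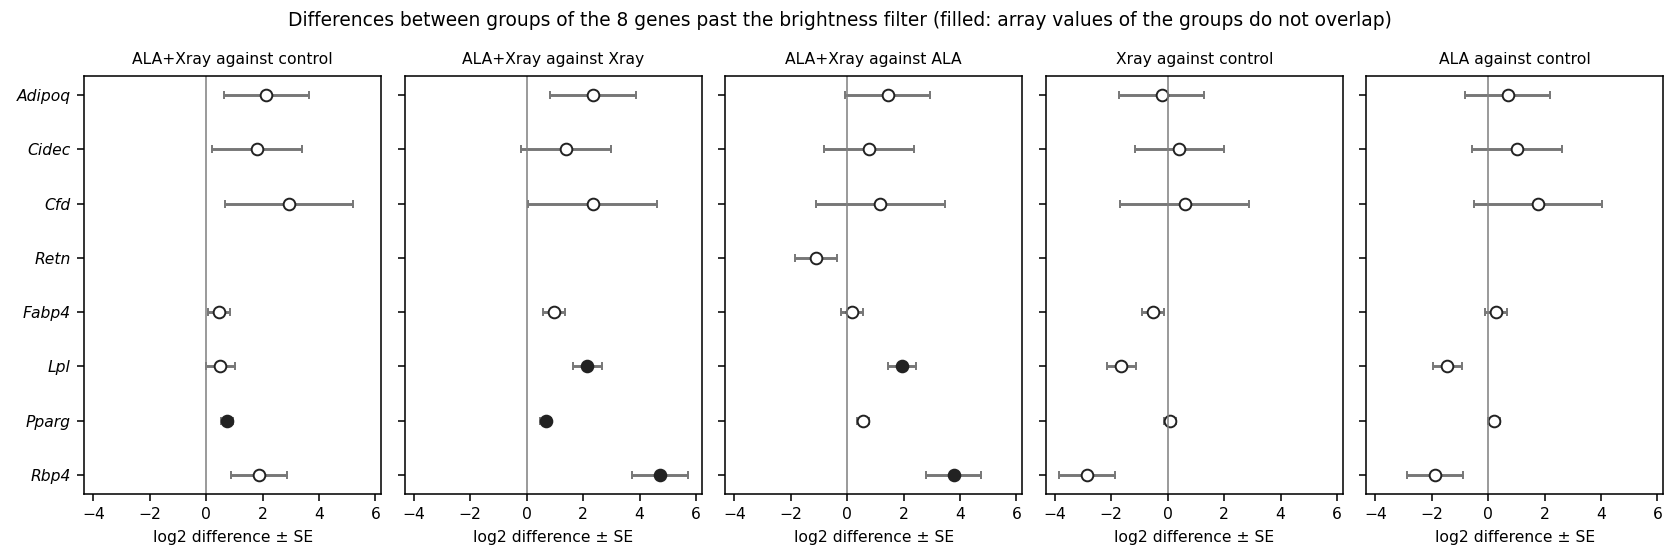
Log2 differences between groups (x axis, first-named group minus second) with standard errors from the fit on 16 arrays, for the 8 genes past the brightness filter. Filled points mark genes whose array values do not overlap between the groups, and Retn is drawn only where both groups had an array above background. Filled are Pparg against control, Lpl, Pparg and Rbp4 against Xray, and Lpl and Rbp4 against ALA.

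Read over the 8 tested genes, 1 passed an adjusted p of 0.05 between ALA+Xray and control tumours (Pparg), where 24.9% of all 15399 genes passed, 9.77% as higher. Between ALA+Xray and Xray tumours 2 passed as higher (Lpl and Rbp4), where 2.07% of genes passed, 1.3% as higher. Between ALA+Xray and ALA tumours 2 passed as higher (Lpl and Rbp4), where 24.1% passed, 10.7% as higher. Since the genes were chosen with these comparisons known, nothing is read from the counts. When each array was left out in turn, Pparg passed against control in 12 of 16 fits, Lpl and Rbp4 against Xray in 4 and 8, and against ALA in 16 and 15. The comparisons share the ALA+Xray arrays. Groups did not overlap for 1 of the 8 genes against control, where this held for 20.6% of genes, 8.99% with ALA+Xray higher. This was so for 3 against Xray, where it held for 6.4% of genes, 2.72% as higher, and for 2 against ALA, where it held for 20.7%, 9.29% as higher.

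Between Xray and control tumours 0 of the 8 genes passed limma's test, 2 had an unadjusted p under 0.05, and 3.37% of all genes passed. Between ALA and control tumours 0 of 8 passed, 2 had an unadjusted p under 0.05, and 0 of 15399 genes passed, with 961 at an unadjusted p under 0.05. The median difference over the 8 genes was 1.34 between ALA+Xray and control tumours, against -0.08 over all genes, 1.77 between ALA+Xray and Xray tumours, against -0.08, and 0.97 between ALA+Xray and ALA tumours, against -0.13. It was -0.31 between Xray and control tumours, against -0.02 over all genes, and 0.49 between ALA and control tumours, against 0.0.

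The design allows the effect of ALA in irradiated tumours to be set against its effect in unirradiated ones. For Lpl the difference of the effects was 3.59 (SE 0.71), made of 2.15 with X-ray and -1.44 without. For Rbp4 it was 6.62 (SE 1.40), made of 4.73 with X-ray and -1.89 without. With a normexp background it was 2.65, and Rbp4 was well above background on 1 Xray, 2 ALA and 2 control arrays. These 2 of 8 genes passed, where 1.23% of all genes did, 0.896% as higher. Pparg had a difference of effects of 0.47 (SE 0.29) and Adipoq of 1.65 (SE 2.13), and neither passed.

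Each of 4 slides carried 1 array of every group, the replicate number being the slide, so every difference can be read within a slide. For Rbp4 the difference between ALA+Xray and Xray was 2.38, 5.47, 4.76 and 6.33 on slides 1 to 4, and for Lpl 0.38, 2.10, 2.85 and 3.27. For Pparg the difference between ALA+Xray and control was 0.73, 0.74, 0.82 and 0.70. Those 3 differences were above 0 on all 4 slides. For Rbp4 the difference between ALA+Xray and control was 3.47, -0.13, -0.25 and 4.44, so it held on 2 of 4 slides, and for Adipoq it was 1.19, 6.53, -0.93 and 1.75. With slide as a block, Lpl no longer passed between ALA+Xray and Xray, neither Lpl nor Rbp4 passed for the difference of ALA effects, and Pparg passed between ALA+Xray and ALA. When each array was left out in turn, Lpl and Rbp4 each passed for the difference of ALA effects in 4 of 16 fits. Position on the slide followed the group and cannot be told apart from it.

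**Figure D3:**
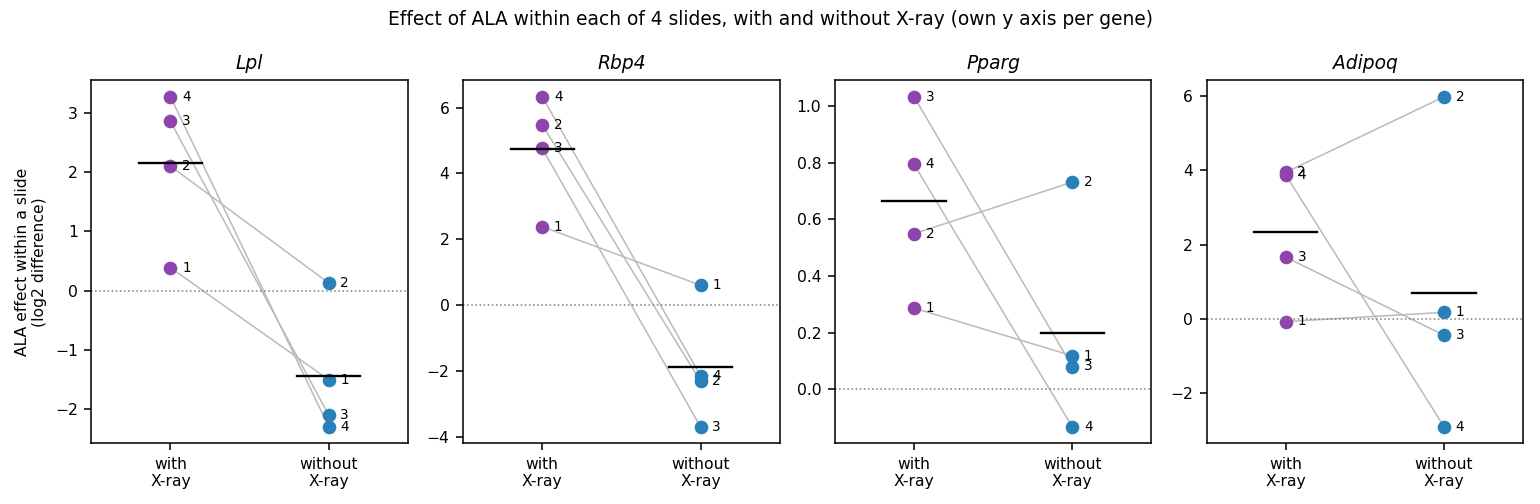
Effect of ALA (log2 difference, y axis, own scale per gene) within each of 4 slides for Lpl, Rbp4, Pparg and Adipoq, with X-ray (ALA+Xray minus Xray) and without X-ray (ALA minus control). Points are slides, grey lines join the values of a slide and bars are group differences. Lpl and Rbp4 are above 0 with X-ray on all 4 slides and are lower without X-ray on each slide. Pparg on slide 2 and Adipoq on slides 1 and 2 are higher without X-ray.

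The 3 arrays with high fat cell genes were left out as a setting chosen after their values were seen, which leaves 2 ALA+Xray and 3 ALA arrays. They were chosen for high fat cell genes, so lower differences of Adipoq, Cidec and Cfd follow from the choice. For Rbp4 the difference was 4.23 between ALA+Xray and Xray tumours and 6.62 for the difference of ALA effects, and for Lpl it was 2.02 and 3.96. Among the 8 genes, Lpl alone still passed, between ALA+Xray and ALA, in a fit where 968 genes passed instead of 3713.

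Likeness between genes was measured as the root mean square difference of gene-centred log2 values over the 16 arrays, which share scaling and slides. From Adipoq the nearest of all genes was Cidec at 0.65, and Cfd was the 8th and Retn the 12th nearest, against a median gene at 2.27. Fabp4 was 110th at 1.83, Pparg 374th at 1.93, Lpl 418th at 1.95 and Rbp4 14978th at 2.50. The nearest named genes beyond the 10 were Hp at 1.06, Lrg1 at 1.27, Has1 and Ffar2 at 1.48 each and Ccn5 at 1.52. Ffar2 was well above background on 3 ALA+Xray, 1 ALA and no other arrays, so it passed the filter only through arrays where it was high. Has1 and Ccn5 were each on 3 ALA+Xray and 1 control array, Has1 on no Xray and Ccn5 on no ALA array. Their likeness to Adipoq, itself detected on 6 arrays, therefore rests partly on signal near background. Hp encodes haptoglobin, an acute phase protein of liver and fat, and measured -0.23, 4.41, 1.55 and 3.71 on ALA+Xray arrays, 1.14, 0.84, -1.85 and -2.18 on Xray arrays, -1.82, 4.30, 0.10 and -1.17 on ALA arrays, and -1.06, 0.07, -0.03 and 0.68 on control arrays. Its 3 highest arrays were the 3 highest of Adipoq.

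The genes nearest to Rbp4 were Uox at 1.12, Ugt1a6b at 1.25, Gpr65 at 1.26, Clec4a3 at 1.29 and Ebi3 at 1.33, with Lpl 74th at 1.46, Pparg 1163rd at 2.07, Fabp4 1469th at 2.12 and a median gene at 2.31. By this measure Lpl was nearer to Rbp4 than to Adipoq, and Pparg and Fabp4 were nearer to Adipoq. Uox encodes urate oxidase, known as a liver enzyme, while Gpr65, Clec4a3 and Ebi3 are known from myeloid cells. Uox was well above background on all 4 ALA+Xray arrays, at -1.56, -1.91, -3.00 and -2.68, on no Xray or ALA array, and on control replicates 2 and 3, at -2.26 and -3.38. Rbp4 was itself above background on those same 2 control arrays and not on the other two.

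Markers of other cell types moved with parts of these patterns, and their part in the results was not tested. The 15 macrophage and monocyte markers, all measured, summed to 158, 271, 316 and 307 times the 75th percentile on ALA+Xray arrays, to 118, 66.1, 31.1 and 20.4 on Xray arrays, to 34.7, 42.4, 13.3 and 20.2 on ALA arrays, and to 64.8, 83.3, 92.4 and 119 on control arrays. All ALA+Xray arrays lay above all others here, which for Lpl and Rbp4 held against Xray and ALA arrays. Xray replicate 1 was the highest of its group in Lpl, Rbp4 and the macrophage sum. It was also the highest in the fibroblast and muscle sums and narrowly in the liver sum, but not in the endothelial, keratinocyte, neutrophil or melanocyte sums. Within ALA+Xray, replicate 3 had the highest macrophage sum, 316, and the lowest Rbp4 value, -1.61. Of the 15, 7 passed as higher against control, 8 against Xray, 14 against ALA and 11 for the difference of ALA effects. Of all genes, 9.77%, 1.3%, 10.7% and 0.896% passed as higher, in the same order. Among the markers that passed was Trem2, a lipid-sensing receptor of macrophages, at 2.99 (SE 0.53) between ALA+Xray and Xray tumours. With slide as a block 5, 4, 14 and 0 of the 15 passed in these 4 comparisons, and without the 3 arrays with high fat cell genes, which leaves fewer arrays, 0, 0, 10 and 0. The median differences of the 15 were then 1.17, 2.24, 3.38 and 4.37, against 1.69, 2.88, 3.54 and 4.60 with all arrays. Between ALA and control tumours 0 of the 15 passed by limma, with 12 at an unadjusted p under 0.05. Their median difference was -1.72, and 0 of the 15 were above 0.

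**Figure D4:**
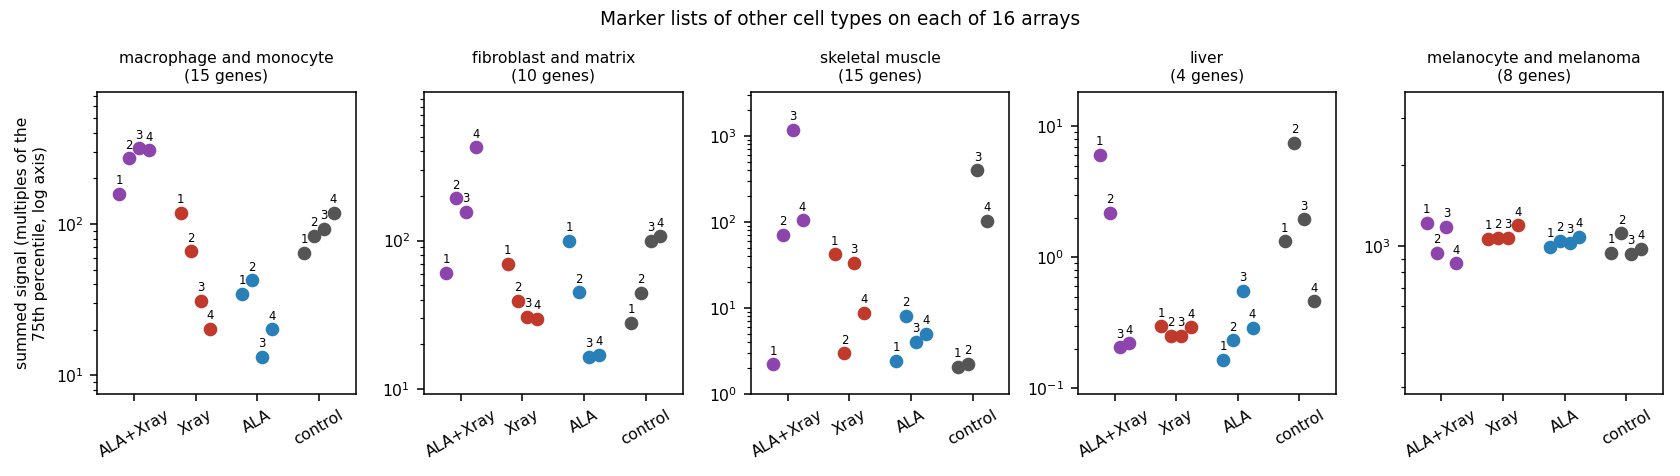
Summed signal of marker lists for other cell types, as multiples of the 75th percentile of the array (log y axis), 1 point per array numbered by replicate, in the ALA+Xray, Xray, ALA and control groups. The macrophage sum is 158 to 316 on ALA+Xray arrays and at most 119 on all others, the muscle sum reaches 1174 on ALA+Xray replicate 3, and the liver sum is highest on ALA+Xray replicate 1 and control replicate 2.

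Liver markers were high on few arrays. The 4 liver markers that could be tested, of 7 listed, summed to 6.06, 2.19, 0.205 and 0.22 on ALA+Xray, 0.296, 0.25, 0.251 and 0.291 on Xray, 0.164, 0.232, 0.555 and 0.288 on ALA, and 1.32, 7.53, 1.95 and 0.46 on control arrays. Alb, the albumin gene, was well above background on ALA+Xray replicates 1 and 2 and on all 4 control arrays, and Ttr, whose product binds the retinol-loaded Rbp4 protein in plasma, and Apoa1 were not on any array. Rbp4 was high on ALA+Xray replicates 3 and 4, at -1.61 and 0.72, where Alb was -6.29 and -5.24 and not above background and Ahsg, a liver plasma protein gene detected on 15 of 16 arrays, was -3.09 and -3.0 and above background. Between ALA and control tumours 0 of the 4 liver markers passed by limma, with 3 at an unadjusted p under 0.05 and a median difference of -2.51. The counts were the same between Xray and control tumours, with a median of -2.56. The part of liver RNA in the Rbp4 values was not tested.

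Skeletal muscle and fibroblast markers shared only parts of the patterns above. The 15 muscle markers summed to 2.2, 70.4, 1174 and 104 on ALA+Xray, 42, 2.95, 33.7 and 8.69 on Xray, 2.42, 8.01, 4.03 and 5.02 on ALA, and 2.06, 2.22, 399 and 103 on control arrays, so ALA+Xray replicate 3 was highest in muscle genes and low in Adipoq. None of the 15 passed in any of the comparisons by limma, with 0 to 8 at an unadjusted p under 0.05. With slide as a block 2 of the 15 passed as higher between ALA+Xray and ALA, where 1672 of 15399 genes did. The 10 fibroblast and matrix markers summed to 60.4, 193, 156 and 424 on ALA+Xray, 69.9, 39.2, 30.8 and 29.8 on Xray, 99.6, 44.9, 16.4 and 17.1 on ALA, and 28, 44.3, 100 and 107 on control arrays. Between ALA+Xray and ALA 8 of 10 passed as higher, where 10.7% of all genes did. With slide as a block 6 of them passed, and 0 without the 3 arrays with high fat cell genes. The 9 endothelial markers tested summed to 7.38 to 17.4 on ALA+Xray, 6.86 to 9.36 on Xray, 6.89 to 10 on ALA and 10.1 to 11.9 on control arrays. The sums of 4 keratinocyte markers were 12.8 to 18 on ALA+Xray, 9.23 to 14.3 on Xray, 12 to 18.7 on ALA and 13.4 to 15.6 on control arrays. Those of 2 neutrophil markers were 0.148 to 11.6 on ALA+Xray, 0.131 to 2.44 on Xray, 1.1 to 3.79 on ALA and 0.122 to 0.957 on control arrays. Of the 7 fat cell markers measured, the sum was 12.5, 52.4, 28.6 and 47.7 on ALA+Xray, 10.4, 16.3, 10.3 and 13.5 on Xray, 12.2, 75.7, 16.7 and 17 on ALA, and 16, 15.8, 19.4 and 20.1 on control arrays. This sum weighs markers by signal, and Fabp4, which is not restricted to fat cells, had the highest signal of the 7 on every array. On ALA+Xray replicate 3 Fabp4 read 4.66, while Adipoq and Cidec were not well above background.

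Other genes known from fat cells were compared by group means only. Such a test cannot show whether they followed the array pattern of Adipoq, Cidec and Cfd, which themselves passed in no comparison described above. Of 24 such other genes listed, 15 could be tested. Between ALA+Xray and control tumours 1 of them rose, where 9.77% of all genes did. It was Cd36, a fatty acid receptor that macrophages also express, at 1.11 (SE 0.33, limma adjusted p = 0.0258). Between ALA+Xray and Xray tumours 0 of 15 passed by limma, with 3 at an unadjusted p under 0.05, where 2.07% of all genes passed. Between ALA+Xray and ALA tumours 2 of 15 rose, where 10.7% of all genes did. These were Cebpa, by 3.12 (SE 0.84, adjusted p = 0.0183), and Cav1, by 1.07 (SE 0.37, adjusted p = 0.0483, 0.057 with slide as a block). With a normexp background Cebpa had a difference of 0.67 (adjusted p = 0.0609). Mrap rose by 1.25 between Xray and control tumours (SE 0.31, adjusted p = 0.0412). With a normexp background its difference was 0.70 (adjusted p = 0.0564), and with median scaling it was 1.21 (adjusted p = 0.127). Ucp1 and Adig were not well above background on any array, and Cidea was on 3.

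Of 13 lipid synthesis genes tested, 5 fell between ALA+Xray and control tumours and 0 rose, in a comparison where 15.1% of all genes fell. Their median difference was -0.55, against -0.08 over all genes. With median scaling 3 fell, and with a normexp background 4 fell and 1 rose. Elovl6, a fatty acid elongase, fell by 1.27 (SE 0.24, adjusted p = 0.00475), Acaca, which makes malonyl-CoA, by 1.10 (SE 0.30, adjusted p = 0.0183), Fasn, fatty acid synthase, by 0.92 (SE 0.26, adjusted p = 0.0233), and Agpat2 by 0.58 (SE 0.19, adjusted p = 0.0439). Against Xray 0 of 13 passed by limma, with 2 at an unadjusted p under 0.05, where 2.07% of all genes passed. Elovl6 was also lower in Xray than in control tumours, by a log2 difference of -1.02 (SE 0.24, adjusted p = 0.0353). Under the slide block that Elovl6 difference had an adjusted p of 0.0549.

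Of 9 genes of lipolysis and lipid droplets tested, 1 rose between ALA+Xray and control tumours, where 9.77% of all genes did. It was Plin2, the droplet coat protein found in most cell types, at 1.16 (SE 0.17, limma adjusted p = 0.00207). Plin2 values were 5.29, 5.60, 5.80 and 5.67 on ALA+Xray, 5.56, 5.07, 4.63 and 4.85 on Xray, 4.73, 4.47, 4.51 and 4.52 on ALA, and 4.58, 4.43, 4.44 and 4.26 on control arrays. All ALA+Xray arrays lay above all ALA and all control arrays. Between ALA+Xray and ALA tumours 2 of the 9 rose, where 10.7% of all genes did. These were Bscl2, by 0.92 (SE 0.25, limma adjusted p = 0.0208), and Plin2, by 1.03 (SE 0.17, limma adjusted p = 0.0027).

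Among the tested partners of Lpl, 2 rose between ALA+Xray and control tumours, where 9.77% of all genes rose. Angptl4, which inactivates lipoprotein lipase, rose by 2.24 (SE 0.55, adjusted p = 0.013), and Apoc2, its activating cofactor, rose by 2.10 (SE 0.55, adjusted p = 0.0158). Apoc2 measured -1.28, 0.40, 0.59 and 0.83 on ALA+Xray, -1.13, -2.62, -3.56 and -2.85 on Xray, -2.55, -2.69, -3.67 and -3.39 on ALA, and -2.73, -2.23, -1.89 and -0.98 on control arrays, and it rose by 2.68 against Xray (SE 0.55, adjusted p = 0.0344), where Xray replicate 1 overlapped with ALA+Xray. Its difference of ALA effects was 3.80 (SE 0.77, adjusted p = 0.0326, 0.0641 with slide as a block). Gpihbp1, which anchors the lipase to capillaries, was tested and is not among those that passed.

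Of 5 genes tested for adipokine receptors and binding proteins, a list that also held the insulin receptor gene Insr, 2 fell between ALA+Xray and control tumours. In that comparison 15.1% of all genes fell. Cdh13, a cadherin that binds adiponectin, fell by 2.04 (SE 0.30, adjusted p = 0.00193), and Cap1, a resistin-binding protein described in human cells, fell by 0.58 (SE 0.20, adjusted p = 0.0464, 0.0601 with slide as a block). Cdh13 also fell against Xray, by 1.33 (SE 0.30, adjusted p = 0.0421), and against ALA, by 1.83 (SE 0.30, adjusted p = 0.00246). Adipor1 fell by 0.47 against ALA (SE 0.11, adjusted p = 0.00997). The leptin receptor gene Lepr was, like Lep, not well above background on any array.

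Of 14 tested genes that carry, take up, convert or respond to retinol, 5 rose and 3 fell between ALA+Xray and control tumours, where 9.77% of all genes rose and 15.1% fell. Cyp26b1, which breaks down retinoic acid, fell by 2.23 (SE 0.23, adjusted p = 0.00056), Aldh1a3, which makes retinoic acid, rose by 2.61 (SE 0.47, adjusted p = 0.00388), the retinoic acid receptor gene Rarb rose by 1.45 (SE 0.29, adjusted p = 0.00589), and Dhrs3, a retinal reductase, rose by 1.69 (SE 0.34, adjusted p = 0.00619). Cyp26b1 measured 0.77, 0.35, 0.37 and 0.23 on ALA+Xray, 0.93, 1.48, 2.00 and 1.41 on Xray, 2.53, 2.10, 2.80 and 2.28 on ALA, and 2.22, 3.00, 2.59 and 2.82 on control arrays. The ALA+Xray arrays lay below all others, and the Xray arrays lay below all ALA and control arrays.

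Against Xray 2 of the 14 rose and 2 fell, where 2.07% of all genes passed. Aldh1a3 rose by 1.99 (SE 0.47, adjusted p = 0.0447) and Dhrs3 by 1.43 (SE 0.34, adjusted p = 0.0469). Cyp26b1 fell by 1.02 (SE 0.23, adjusted p = 0.0421) and Rarg by 0.90 (SE 0.19, adjusted p = 0.0357). Aldh1a3 measured -2.52, -0.63, -0.15 and -0.23 on ALA+Xray and -2.32, -2.25, -3.60 and -3.35 on Xray arrays, so ALA+Xray replicate 1 overlapped with Xray. With slide as a block, the adjusted p against Xray was 0.0595 for Aldh1a3, 0.057 for Dhrs3 and 0.0504 for Cyp26b1. Cyp26b1 was also lower in Xray than in control tumours, by a log2 difference of -1.20 (SE 0.23, adjusted p = 0.0222). Lrat, Crabp2, Rbp2, Rbp3 and Rara were not well above background on any array.

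Of 9 factors of fat cell differentiation tested, 2 rose and 4 fell between ALA+Xray and control tumours, where 9.77% of all genes rose and 15.1% fell. Cebpb and Cebpd, early factors of the programme that are also induced in inflammation, rose by 1.77 (SE 0.47, adjusted p = 0.018) and 1.81 (SE 0.51, adjusted p = 0.0216). Klf15, a later factor, fell by 1.05 (SE 0.21, adjusted p = 0.00589), and Prdm16, a factor of brown fat, fell by 0.60 (SE 0.16, adjusted p = 0.0171). Against Xray 1 of 9 passed, where 2.07% of all genes did. It was Zfp423, which fell by 0.64 (SE 0.14, adjusted p = 0.0427). In the ALA against control comparison no gene of these 7 lists passed by limma, with 0 to 2 in each list at an unadjusted p under 0.05. Without the 3 arrays with high fat cell genes, 4 of the 19 genes of these 7 lists named by the same rule as passing between ALA+Xray and control still passed (Plin2, Cdh13, Cyp26b1 and Rarb), 0 of 7 between ALA+Xray and Xray, and 7 of 21 between ALA+Xray and ALA. Fewer arrays entered that fit, and all of those that no longer passed kept their sign, with Cd36 at 1.07, Elovl6 at -1.19, Prdm16 at -0.65 and Angptl4 at 1.58 between ALA+Xray and control.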

How the data were processed

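RNA from 16 tumour preparations, 4 per group, was measured on 1-colour Agilent arrays. Per the file headers, the deposited scanner files hold spot intensity on a linear scale (processed signal from Agilent Feature Extraction 10.7.3.1, mean signal and local background) with quality flags as other values; the submitters' processing notes name version 9.5.3.1. The authors' deposited value table, also intensity, has a median of 31.881 in all 16 columns and served as an alternative.

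The log2 processed signal was reduced by the array's 75th percentile, and spots of a probe without outlier flags were averaged; 39 of 41174 probes were left out. Probes well above background on at least 4 arrays were kept, the brightest standing for its gene (15399 genes). Names came from accessions or symbols matched to RefSeq where possible, otherwise from the files. A limma 3.58.1 fit in R 4.3.3 (reading with data.table, version 1.17.8) on the 4 group means gave 5 comparisons and the difference of ALA effects, with Benjamini-Hochberg adjustment over all genes at 0.05. It was tested on simulated data. The labels tie each preparation to a mouse without saying that the 4 mice of a group differ, so p-values measure the spread between preparations. Same-numbered arrays shared a slide. Their deviations from group means correlated at -0.461 to 0.54, with 9 of 24 pairs over 0.1, against 20 of 72 pairs of different numbers. Among arrays of other groups, 11 of 16 arrays correlated best with an array of their own number. The numbers were not shown to pair tumours, since slide and pairing cannot be told apart, and slide is a block only as a batch.

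The 10 genes and all lists were chosen with earlier results of these data known. All 10 genes were named; from each list, in each comparison, up to the 4 of smallest p past the threshold, or else up to 2; and the 5 named genes nearest to Adipoq and to Rbp4. A few genes named with their values outside this rule (Ttr, Apoa1, Lepr, Gpihbp1, Ucp1, Adig, Cidea) were chosen after their values were seen. One gene named by this rule is not reported here.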

Additional observations from a re-analysis of the deposited data

Results flagged for a closer look

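Pparg on ALA+Xray replicate 1, at -1.02, stood apart from the other 3 ALA+Xray arrays, at -0.55, -0.47 and -0.47: its gap of 0.842 of the group's range was above the critical value of Dixon's test for 4 samples. It was the only one of 40 groups of 4 arrays to do so, and chance alone gives about 1 in 20 such groups.

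The effect of ALA differed between irradiated and unirradiated tumours for Lpl, by 3.59 on the log2 scale, and for Rbp4, by 6.62, or by 2.65 with a normexp background. Rbp4 was well above background on 1 of 4 Xray, 2 of 4 ALA and 2 of 4 control arrays. Both genes were picked with this difference known, so it is a description. On slides 1 to 4 it was 1.89, 1.97, 4.95 and 5.56 for Lpl and 1.78, 7.78, 8.45 and 8.47 for Rbp4. The macrophage marker sum had medians of 289, 48.6, 27.4 and 87.9 in ALA+Xray, Xray, ALA and control tumours, and the fibroblast sum 175, 35, 31 and 72.3. Both sums, like both genes, were highest in ALA+Xray and next in control tumours. By medians both sums were higher in Xray than in ALA tumours, while Lpl (-1.19 and -0.93) and Rbp4 (-5.75 and -4.02) were lower. The Xray and ALA arrays overlapped in both sums and both genes. The fibroblast medians were close, and ALA replicate 1 held the highest fibroblast sum of those groups, at 99.6, so that order depends on the statistic. The part of either cell type was not tested.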

How the results depend on the processing

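Of 1258 values for the differences of the 8 genes under the alternatives, 1168 kept their side of the threshold and stayed within the spread, 64 no longer passed, 14 passed newly and 12 moved further. No difference past the threshold changed sign, and 60 values of differences below it did, including those that follow from leaving out the 3 arrays with Plin1 above background. Array weights gave 6442 genes past the threshold between ALA+Xray and control (3 of the 8 genes described here), 2165 between ALA+Xray and Xray, 2963 between Xray and control (2 of 8, Lpl and Rbp4), 40 between ALA and control, 6438 between ALA+Xray and ALA (5 of 8) and 2023 for the difference of ALA effects. Median scaling gave 2135 (ALA+Xray and control), 28 (Xray and control) and 1896 (ALA+Xray and ALA), and shifted the median of all genes to -0.14 between ALA+Xray and control and to -0.12 between ALA and control. It also moved the split of higher and lower genes to 206 and 37 between ALA+Xray and Xray (200 and 118 as reported), 27 and 1 between Xray and control (307 and 212), 1360 and 536 between ALA+Xray and ALA (1649 and 2064) and 241 and 32 for the difference of ALA effects (138 and 51). Fits of only the arrays compared gave 1603 (ALA+Xray and control), 1 (ALA+Xray and Xray, 0 of 8), 2 (ALA and control) and 1589 (ALA+Xray and ALA). A normexp background gave 521 between ALA+Xray and Xray. No filter on dim probes gave 11 (ALA+Xray and Xray, 0 of 8), 3 (Xray and control) and 40 (difference of ALA effects, 0 of 8). A filter on all 16 arrays, which leaves Rbp4 out, left 1 of the genes past the threshold between ALA+Xray and Xray, 1 between ALA+Xray and ALA and 1 for the difference of ALA effects. The cause of these changes was not tested, beyond the genes or arrays each setting removes.

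With slide as a replicate block, 8 genes passed for the difference of ALA effects, 0 of them among the 8 genes described, and 1 of these passed between ALA+Xray and Xray; 11 of 16 arrays correlated best with an array of their own number. Without those 3 arrays, a setting chosen after seeing the data, 548 genes passed between ALA+Xray and control (0 of the 8), 2 between ALA+Xray and Xray (0 of 8), 968 between ALA+Xray and ALA (1 of 8) and 23 for the difference of ALA effects (0 of 8).

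Leaving out each array in turn gave 1954 to 5953 genes between ALA+Xray and control (0 to 1 of the 8), 3 to 3135 between ALA+Xray and Xray (0 to 4), 1 to 1087 between Xray and control (0 to 1), 0 to 1 between ALA and control (0), 2163 to 5817 between ALA+Xray and ALA (1 to 3) and 1 to 1065 for the difference of ALA effects (0 to 2). Over the 16 such fits, Lpl passed in 16 between ALA+Xray and ALA, in 4 between ALA+Xray and Xray and in 4 for the difference of ALA effects; Rbp4 in 15, 8 and 4; and Pparg in 12 between ALA+Xray and control. The highest count in 5 of the 6 came without ALA+Xray replicate 1. Lowest were, without ALA+Xray replicate 3, 3 between ALA+Xray and Xray, without control replicate 2, 1954 between ALA+Xray and control, without Xray replicate 1, 1 between Xray and control, and without ALA replicate 4, 2163 between ALA+Xray and ALA. Signal near background limits Adipoq, Cidec, Retn, Plin1 and Rbp4.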
